A study of Mus musculus with 12 samples.

Results

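The Nodal and FGF signals of undifferentiated cells were followed through 10 genes during the retinoic acid differentiation of P19, an embryonal carcinoma line of the mouse whose cells can become neuron-like. The genes were chosen by name, with earlier results of these data known. They are Nodal, its co-receptor Tdgf1 (also called Cripto), its secreted inhibitors Lefty1 and Lefty2, the ligands Fgf4, Fgf5, Fgf8 and Fgf15, and the feedback inhibitors Spry2 and Spry4. Of the 10 genes, 7 had at least 1 read and 3 had at least 30 reads over all libraries, against 14042 and 9309 genes in the whole series. The 7 genes held 203 reads of 4274320.

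Nodal is a ligand of the TGF-beta superfamily that binds activin receptors together with Tdgf1 and acts through SMAD proteins. It switches on its own gene and those of its inhibitors Lefty1 and Lefty2, so that the ligand and its brake rise and fall as a loop. FGF ligands act through receptor tyrosine kinases and the RAS-ERK cascade, which in turn switches on Sprouty proteins that dampen it. Both pathways are active in the epiblast and in cells that resemble it, and high Nodal activity directs such cells to mesoderm and endoderm and away from the neural fate.

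Native RNA was sequenced on nanopores at day 0 (D0, undifferentiated) and at 2, 4 and 6 days (D2, D4 and D6) after induction with 500 nM retinoic acid in NDiff 227 medium. All cells were WT P19 cells, an established line, and each day had 3 biological replicates, 12 libraries in all. In direct RNA sequencing 1 read is 1 RNA molecule, read from its poly(A) tail inwards, and the values below are reads on mRNA-class transcripts, also given as RPM, the reads of a gene scaled to 1e6 such reads. These reads summed to 1582131 over the D0 libraries, 545795 at D2, 1109508 at D4 and 1036886 at D6, so that 3 reads over a whole day correspond to 1.9, 5.5, 2.7 and 2.89 RPM. A level of 0 reads on a day was read as a level of up to that limit, which covers counting error only.

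The labels were checked first. Pou5f1, a transcription factor of pluripotent cells, had 1478 to 1673 RPM in the D0 libraries and at most 12.4 RPM in any later one. Map2, a microtubule protein of neurons, had 4.45 to 9.63 RPM at D0 and 239 to 301 RPM at D6, and the neuronal tubulin Tubb3 had 122 to 133 and 935 to 1024 RPM. The 12 libraries came from 13 sequencing runs that each held 1 day, so day and run cannot be told apart. The names of the 3 D0 runs call the cells undifferentiated but carry the mark D2, and the Pou5f1 level in these runs was 1519 to 1610 RPM. The names of 2 of the D6 runs give no day. Hoxb2, a homeobox gene that retinoic acid induces and that was named with its values known, had 923 and 1128 RPM in these runs against 936 and 859 RPM in the other D6 runs, at most 509 RPM in any D4 run and 0 in the D0 runs. Retinoic acid, the change of medium and time also changed together. In these bulk samples fewer cells of a type and less RNA per cell cannot be told apart.

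Nodal and its co-receptor were read in every D0 library and in no later one. The fall was complete at the depth of these libraries by D2 and held at D4 and D6. The inhibitor Lefty1 fell with them but left 1 read at D2 and 2 reads at D4. The 4 Nodal-side genes together had 106 to 111 RPM in the D0 libraries and between 0 and 8.31 RPM in each of the later ones. These sums are given as a description and were not tested.

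Nodal, the ligand, had 11, 10 and 12 reads in D0 replicates 1, 2 and 3, or 24.5, 16.3 and 23.1 RPM (21.3 ± 4.39 RPM, SD, n = 3). It had 0 reads in each of the 9 later libraries. The D0 libraries therefore did not overlap with those of any later day. Against the limit of 3 reads over a day, Nodal was lower than at D0 by at least 3.79-fold on D2, at least 7.71-fold on D4 and at least 7.21-fold on D6.

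Tdgf1, the membrane-anchored co-receptor, had 25, 22 and 19 reads in the 3 D0 libraries, or 42.7 ± 11.2 RPM (SD, n = 3). It too had 0 reads in each of the 9 later libraries. The bounds were at least 7.59-fold lower at D2, at least 15.4-fold at D4 and at least 14.4-fold at D6. D0 replicate 1 was the highest for Tdgf1 and Nodal and the lowest for Lefty1, and the summed level of the Nodal side varied less between the D0 libraries (108 ± 3.07 RPM, SD, n = 3) than that of each of these 3 genes. For each gene the 95% counting intervals of the D0 libraries overlapped, so this order lies within counting error. The smaller spread of the sum was not tested.

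Lefty1, the secreted inhibitor, had 14, 33 and 24 reads at D0, or 31.2, 53.8 and 46.2 RPM (43.7 ± 11.5 RPM, SD, n = 3). At D2 it had 1 read, in replicate 1, and at D4 it had 1 read in replicate 1 and 1 in replicate 3. No read was found at D6. Over the pooled reads of a day Lefty1 was 24.5-fold lower at D2 than at D0 (95% interval of counting, 4.26 to 981) and 24.9-fold lower at D4 (6.64 to 210). At D6 it was at least 15.5-fold lower. The lowest D0 library lay above the highest library of every later day.

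For each of these 3 genes the exact two-sided permutation test of D0 against each later day gave p = 0.10, the smallest that 3 against 3 libraries allow. A fit over all genes with at least 30 reads (limma-voom, Benjamini-Hochberg adjusted over 9309 genes) shares the spread between genes and can go lower. The share of all genes called lower at an adjusted p of at most 0.05 was 6.11%, 12.5% and 18.8% for D2, D4 and D6, the share called higher was 4.69%, 12.9% and 19%, and 3 of 3 members tested were called lower on each day. With libraries scaled by total reads the shares of all genes shifted towards higher calls, with 7.73% higher and 4.01% lower at D2, 16.5% and 9.89% at D4 and 27.8% and 12.5% at D6, and the median log2 fold change of all genes moved to 0.13, 0.12 and 0.26. The 3 members were called lower under that scaling too. These 3 genes passed the minimum of 30 reads almost entirely through their D0 reads, so that they had to differ, and their count is not support for a change of the pathway. In this fit the log2 fold change of Nodal was -3.09 (SE 0.65, limma-voom adjusted p = 0.000447) at D2 and -4.12 (SE 0.65, adjusted p = 4.91e-07) at D6. For Tdgf1 it was -4.05 (SE 0.64, limma-voom adjusted p = 2.23e-06) at D2 and -5.09 (SE 0.64, adjusted p = 1.41e-09) at D6. For Lefty1 it was -3.61 (SE 0.67, limma-voom adjusted p = 5.58e-05) at D2 and -5.17 (SE 0.67, adjusted p = 3.6e-09) at D6. Where a day had no reads, these values depend on the 0.5 reads added before the logarithm, and the bounds above are the safer statement. Without any 1 of the D0 libraries Nodal had fewer than 30 reads and was not tested, which left 2 of 2 members called.

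**Figure D1:**
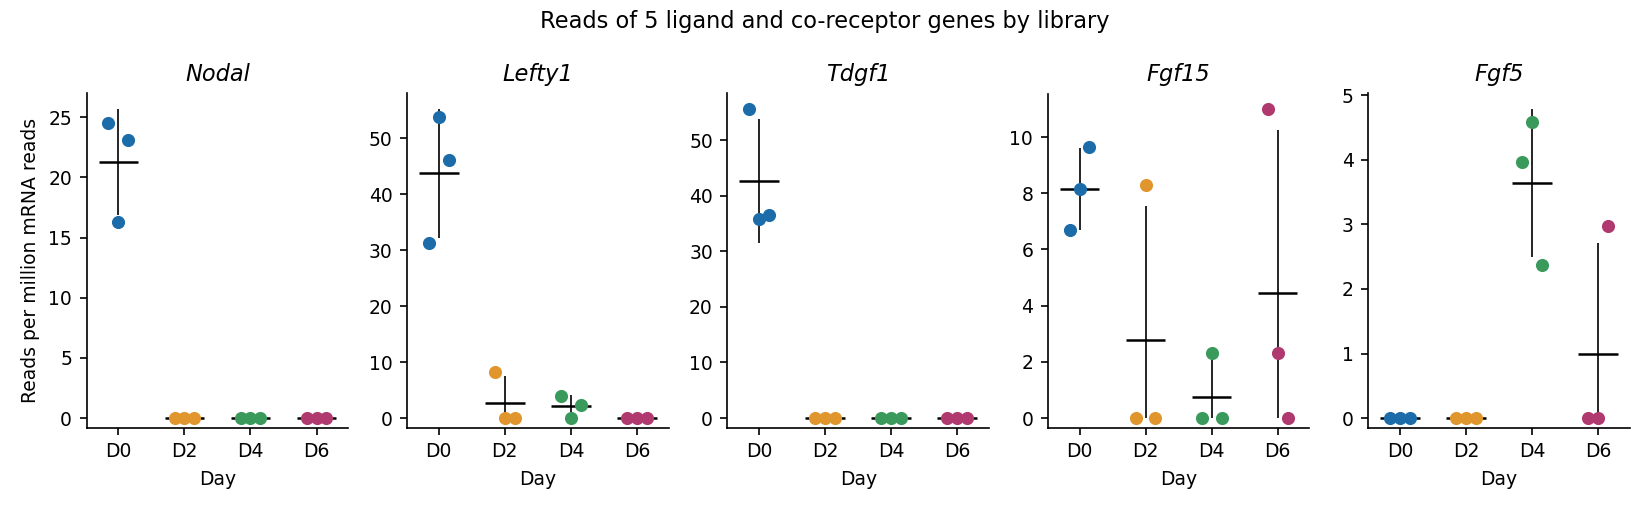
RPM of Nodal, Lefty1, Tdgf1, Fgf15 and Fgf5 in each library (points, 3 replicates per day), with the mean (horizontal bar) and SD (vertical bar, stopped at 0) of each day and a separate linear axis per gene. The D0 points of Nodal (16.3 to 24.5 RPM) and Tdgf1 stand above 9 later libraries at 0, Lefty1 keeps a few later reads, and Fgf5 has points above 0 in all 3 D4 libraries (2.37 to 4.59 RPM).

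Lefty2 had no read in any library, which allows up to 1.9 RPM at D0. Because Lefty1 and Lefty2 are neighbours on chromosome 1 and near copies of each other, their sequences were compared to see how well reads can be told apart. On the mm10 build Lefty2 lies at chr1:180893108-180899103 and Lefty1 at chr1:180935022-180938400, both on the plus strand and both with 4 exons in the GENCODE annotation. Their coding sequences are 1107 bases each and were identical at 92% of 1109 aligned columns, with 85 differing bases and 4 gap columns. The stretch of 60 bases with the most differences, from coding base 34 to 93, is shown with the 18 differing bases in capitals:
Lefty1: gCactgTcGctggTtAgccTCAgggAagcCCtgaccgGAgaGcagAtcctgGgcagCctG
Lefty2: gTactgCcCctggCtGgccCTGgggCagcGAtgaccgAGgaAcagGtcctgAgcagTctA
The part after the stop codon also differs, with 425 bases in Lefty1 and 1290 bases in Lefty2. Of 74 Lefty1 reads, 72 had the highest mapping quality of 60, and 71 ended within 25 bases of the annotated 3′ end of Lefty1. The exceptions bear on the late reads. The D4 read in replicate 3 had a mapping quality of 18, aligned over 207 bases only and stopped 1034 bases before the 3′ end. A D0 read in replicate 2 covered almost the same inner stretch, over 183 bases. Without the read of low mapping quality, D4 held 1 Lefty1 read.

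The FGF ligands were close to the limit of detection on every day. Fgf15, a ligand of the embryonic neural tube and later a gut hormone that restrains bile acid synthesis, had 3, 5 and 5 reads at D0 (8.15 ± 1.48 RPM, SD, n = 3). It had 0, 2 and 0 reads at D2, 0, 1 and 0 at D4, and 3, 1 and 0 at D6. The D0 libraries overlapped with those of D2 and D6 but not with those of D4. Over pooled reads Fgf15 was 2.24-fold lower at D2 than at D0 (95% counting interval 0.508 to 20.5), 9.12-fold lower at D4 (1.37 to 387) and 2.13-fold lower at D6 (0.658 to 8.97). The exact permutation p was 0.3, 0.1 and 0.4 in that order. Since 0.10 is the smallest p that 3 against 3 libraries allow, this test could not call a difference on any day. The D4 value rests on 1 read against 13 at D0. Unlike Nodal and Tdgf1, Fgf15 had reads on all 4 days.

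Fgf5, a ligand that marks the epiblast after implantation, ran the other way. It had 0 reads in the D0 and D2 libraries, 1, 2 and 1 reads at D4 (3.64 ± 1.15 RPM, SD, n = 3) and 0, 0 and 1 reads at D6. All 3 D4 libraries lay above all 3 D0 libraries (exact permutation p = 0.1), but with 4 reads against 0 no fold is given. The 4 reads came from all 3 runs of D4, with 1, 2 and 1 reads. The D2 libraries were shallower and their limit of 5.5 RPM lies above the D4 level, so that a D2 level like that of D4 was not detectable. When genes under 30 reads were kept in the fit, limma-voom called Fgf5 higher (log2 fold change 2.26, adjusted p = 0.00612) and Fgf15 lower (-2.3, adjusted p = 0.0048) at D4 than at D0. The same fit gave Fgf5 1.41 (adjusted p = 0.0832) at D2, where both days had 0 reads, so that such values include the 0.5 reads added in libraries of unequal depth. In that fit 9.19% of 14042 genes were called higher and 9.17% lower at D4. On D2 and D6 neither was called in that fit.

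The remaining members gave almost no reads. Fgf8, a patterning ligand of the early embryo, had 2, 1 and 0 reads at D0 and none later. Its 3 reads fell on 2 transcripts, and only 1 had a mapping quality of 60. Spry4, a feedback inhibitor of the ERK cascade, had 0, 1 and 1 reads at D0 and none later. Both genes were at or under the limit on every day, and no fold is given. Fgf4, a ligand of pluripotent cells, and Spry2, a second Sprouty inhibitor, had no read in any library that passed the quality tag. Among lines that the authors' tail caller did not pass, Fgf4 had none, Lefty2 had 1 (D4) and Spry2 had 3 (2 at D0 and 1 at D4). A count of 0 here allows a D0 level of up to 1.9 RPM. Between D2 and D4 and between D4 and D6 the 3 tested members were at or under 3 reads on both days and no fold is given.

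Each of the 3 tested members was seen in each of the 3 D0 runs. Nodal had 16, 13 and 4 reads in them (22.3, 23.2 and 13.2 RPM), Lefty1 had 30, 28 and 13 (41.8, 50 and 42.7 RPM) and Tdgf1 had 26, 26 and 14 (36.2, 46.4 and 46 RPM). No D0 run thus carried the level of Lefty1 or Tdgf1 alone. Barcodes, which assign a read to its replicate, had a confidence of at least 0.9 in 30 of 33 Nodal reads, 64 of 74 Lefty1 reads and 63 of 66 Tdgf1 reads.

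The reads also show which part of each transcript was seen. Nodal was read on ENSMUST00000049339.6 (chr10:61417972-61425338, plus strand, 3 exons, 2095 bases), Tdgf1 on ENSMUST00000035075.12 (chr9:110939603-110946158, minus strand, 6 exons, 1932 bases) and Fgf15 on ENSMUST00000033389.6 (chr7:144896531-144900953, plus strand, 3 exons, 1810 bases). All Nodal, Tdgf1 and Fgf15 reads had the highest mapping quality of 60, which 42.3% of all mRNA-class D0 reads had. The median read covered 67.3% of the transcript for Nodal, 86.7% for Lefty1, 42.8% for Tdgf1 and 83.2% for Fgf15, against 60% over all mRNA-class reads of D0. The median read was thus longest for Lefty1 and shortest for Tdgf1 relative to the transcript. The whole coding part was covered by 35 of 74 Lefty1 reads, 15 of 66 Tdgf1 reads, 9 of 20 Fgf15 reads and 5 of 33 Nodal reads.

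The 5′ ends of Nodal reads lay away from the annotated start. None of 33 reads came within 286 bases of the annotated 5′ end, whereas the start codon lies after 328 bases, and 9 reads began within 5 bases of that codon. Lefty1 reads began as near as 25 bases to the annotated start, with 35 of 74 within 50 bases. For Tdgf1 1 of 66 reads began within 50 bases, and over all mRNA-class D0 reads the share was 20.5%. All 33 Nodal reads ended within 25 bases of the annotated 3′ end. For Fgf5, 3 of 5 reads ended there, and the other two, both at D4, ended 1059 and 1069 bases before it.

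**Figure D2:**
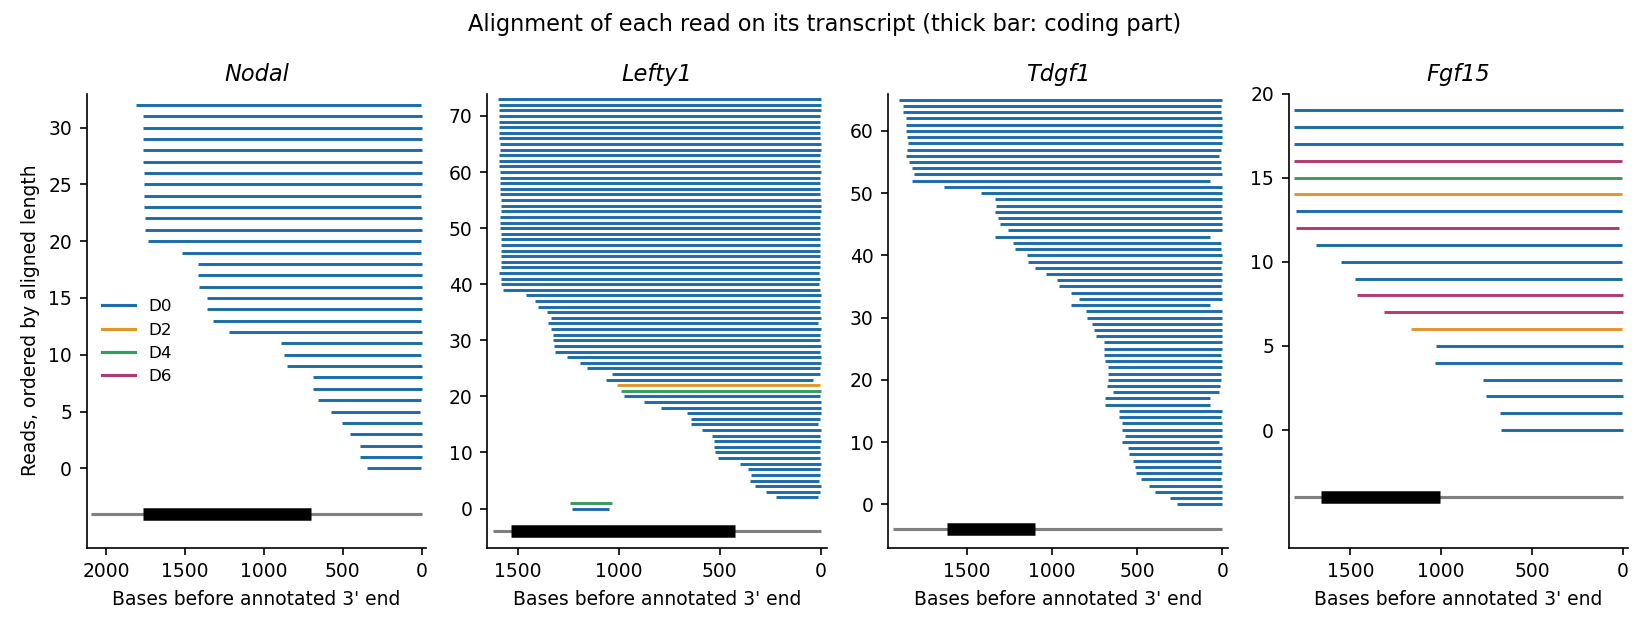
Each horizontal line is 1 read of Nodal, Lefty1, Tdgf1 or Fgf15, drawn by its distance in bases from the annotated 3′ end and coloured by day, with the coding part as a thick bar below. Reads of Nodal and Tdgf1 are from D0 only, 35 of 74 Lefty1 reads span the coding part, and 9 Nodal reads begin within 5 bases of the start codon.

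Since Nodal and Tdgf1 were lost together, the bases just before their annotated transcription start are shown. The Nodal reads began 286 bases or more after that start, so they do not show whether it was used. RefSeq (GRCm38.p6, the same build as mm10) gave such a sequence for 5 of the 10 genes, Nodal, Tdgf1, Fgf4, Fgf5 and Spry2. The 250 bases before the start of Nodal (chr10:61417722-61417971, plus strand) and of Tdgf1 (chr9:110946159-110946408, minus strand) end where the transcripts above begin. Capitals mark matches on either strand to TGTNNATT, a core bound by FOXH1, the DNA-binding partner of SMAD proteins, or to the GC box GGGCGG:
Nodal: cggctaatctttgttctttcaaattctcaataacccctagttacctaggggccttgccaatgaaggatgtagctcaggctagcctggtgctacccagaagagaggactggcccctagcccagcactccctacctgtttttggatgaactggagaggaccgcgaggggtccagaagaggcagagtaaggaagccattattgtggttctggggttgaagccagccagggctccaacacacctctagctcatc
Tdgf1: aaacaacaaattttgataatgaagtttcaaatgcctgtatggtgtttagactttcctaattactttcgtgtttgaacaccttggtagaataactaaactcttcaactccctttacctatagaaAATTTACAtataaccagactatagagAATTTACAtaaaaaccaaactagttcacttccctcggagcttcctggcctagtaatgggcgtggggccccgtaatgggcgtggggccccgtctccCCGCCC
The Tdgf1 window held TGTNNATT at 2 places on the opposite strand, beginning 127 and 101 bases before the start, and 1 GC box at 6 bases. The Nodal window held neither. Among the windows not printed, that of Spry2 held 1 TGTNNATT at 56 bases, that of Fgf5 held 1 GC box and that of Fgf4 held 2. Over 32536 promoter windows of the same length, 10.9% held TGTNNATT and 33% held the GC box. Both windows lacked the octamer ATGCNAAT of POU factors (2.89% of windows), the SMAD palindrome GTCTAGAC (0.169%) and TATAAA (12.3%). A GC content of 42% in Tdgf1 and 53.2% in Nodal compares with 70.8% in Fgf5, 71.2% in Fgf4 and 62.4% in Spry2. These matches are descriptions of the letters and no sites were tested.

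Poly(A) tails of the members could be described at D0 only. The tail of Nodal had a median of 106, 115 and 110 nt in the 3 libraries, that of Tdgf1 110, 94.9 and 96.2 nt, and that of Lefty1 80.9, 91.8 and 102 nt. Over all mRNA-class reads the medians were 100, 103 and 106 nt. Lefty1 thus lay below the median of all reads in each library and Nodal above it, by amounts close to the spread between libraries (SD 10.7 nt for Lefty1 and 4.4 nt for Nodal, n = 3). Fgf15 had 118, 83 and 133 nt, from 13 reads. Tails under 30 nt were found in 3 of 33 Nodal reads (9.09%, exact 95% interval 1.92 to 24.3), 5 of 71 Lefty1 reads (7.04%, 2.33 to 15.7) and 1 of 66 Tdgf1 reads (1.52%, 0.0384 to 8.16), against 2.3% of all reads. The interval of Nodal includes the value of all reads, and that of Lefty1 begins next to it. Later reads were too few for a comparison, with the 4 Fgf5 tails of D4 between 112 and 198 nt.

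**Figure D3:**
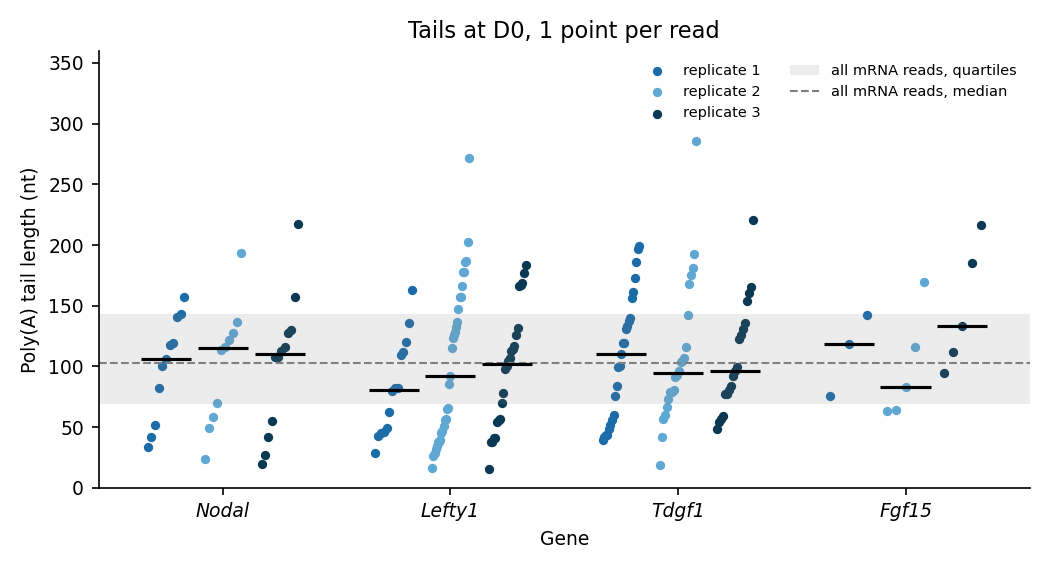
Poly(A) tail length in nucleotides of each D0 read of Nodal, Lefty1, Tdgf1 and Fgf15 (points, 3 replicates side by side, black bar for the median of a replicate), over the median and quartiles of all mRNA-class D0 reads (dashed line at 103 nt and grey band). The medians of Lefty1, 80.9 to 102 nt, lie below the dashed line, and those of Nodal, 106 to 115 nt, above it.

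The other genes of both pathways were read from 8 lists with 96 genes, of which 87 had reads and 52 were tested. At D2, 3 were higher and 11 lower than at D0 (21.2% lower, against 6.11% of all genes). At D4, 5 were higher and 14 lower, or 9.62% and 26.9% against 12.9% and 12.5% of all genes, and at D6, 11 were higher and 13 lower, or 21.2% and 25% against 19% and 18.8% of all genes. The median log2 fold change over the 52 genes was -0.23, -0.01 and 0.02 for D2, D4 and D6, and over all genes -0.04, 0.01 and 0. With scaling by total reads 3 were higher and 10 lower at D2, 7 and 10 at D4, and 14 and 11 at D6. No test was made of the lists as such. Bambi, Gpc4, Etv5 and Ier3, described next, had fewer than 30 reads after D0 (19, 22, 0 and 9), so that they passed the minimum through D0 and had to differ, and their calls are a description.

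Among related ligands and the proteins that process Nodal, 1 of 9 genes was tested. Gdf3, a ligand that signals through the same receptors as Nodal, had 227, 196 and 191 RPM at D0. It had 29 to 74.8 RPM at D2, 23.8 to 28.4 at D4 and 14.7 to 23.8 at D6. The groups did not overlap, and the log2 fold change was -2.52 (SE 0.31, limma-voom adjusted p = 3.14e-09) at D2 and -3.65 (SE 0.33, adjusted p = 3.43e-14) at D6. Gdf3 therefore fell with Nodal but, with 19 reads at D6, was still found in every library.

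None of the 8 tested Nodal receptors and SMAD transducers was called lower on any day, against 6.11%, 12.5% and 18.8% of all genes. With so few genes tested, 0 lower calls is near these shares and is not read as a result about the list. Of 8 tested, 0 passed at D2 and 0 at D4 by limma-voom and by limma-trend, with 1 at an unadjusted p under 0.05 on each of these days. At D6, 3 were higher, or 37.5% against 19% of all genes. Acvr2a, a type II receptor, had a log2 fold change of 1.94 (SE 0.45, limma-voom adjusted p = 0.000421) at D6, the SMAD anchor Zfyve9 had 1.3 (SE 0.5, adjusted p = 0.033), and Smad2 had 0.83 (SE 0.33, adjusted p = 0.0433). By limma-trend 1 of the 3 passed. Smad2 was no longer called without D0 replicate 1 or 2 or D6 replicate 1 or 3 (limma-voom adjusted p 0.0711 to 0.156), nor Zfyve9 without any 1 of the D0 libraries or D6 replicate 2 or 3 (0.0591 to 0.0893). Foxh1 had no read on any day.

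Nodal inhibitors other than the Lefty genes moved both ways, with 1 higher and 3 lower of 10 tested at D2, or 10% and 30% against 4.69% and 6.11% of all genes. Bambi, a decoy receptor, fell from 40.1, 44 and 52 RPM at D0 to at most 8.3 RPM in the D2 libraries (log2 fold change -2.83, SE 0.61, limma-voom adjusted p = 0.000631). Tgif1, a SMAD co-repressor, fell at D2 (-1.36, SE 0.33, limma-voom adjusted p = 0.0024) and at D6 (-1.63, SE 0.27, adjusted p = 1.25e-06). Ski, a further SMAD co-repressor, rose at D2 from 13.4 to 25 RPM to 41.6 to 99.6 RPM (log2 fold change 1.85, SE 0.37, limma-voom adjusted p = 0.000207), and at D6 the change was 0.06 (adjusted p = 0.927). At D6 Drap1, which restrains Nodal signalling, was higher (0.54, limma-voom adjusted p = 0.00562) and Ncln, whose product antagonises Nodal, lower (-1.03, adjusted p = 0.0087), and under scaling by total reads Ncln did not pass (-0.75, adjusted p = 0.0652), nor without D0 replicate 3 (-0.8, adjusted p = 0.0665) or D6 replicate 2 (-0.91, adjusted p = 0.0633). Skil was called lower at D2 and D4 and is named here after its values were seen.

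Among mesendoderm genes that Nodal switches on, T had no read, and Eomes, a T-box factor, had 10 reads at D0 and 1 read over the later days. Lhx1 and Gsc went the other way. Lhx1 rose from 1 read in the D0 libraries to 9 in those of D6 (2, 3 and 4 by replicate). Gsc had no D0 read and 3 reads on D6 (2, 0 and 1 by replicate). These genes lie outside the rule for named genes, had too few reads to be tested, and did not share a direction.

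On the FGF side the ligands outside the members were also sparse, since 8 of 12 had reads and 1 was tested. Fgf13, an intracellular member of the family that is not secreted, had 1.93 to 15.6 RPM at D0 and 32.7 to 47.9 RPM at D6 (log2 fold change 2.67, SE 0.52, limma-voom adjusted p = 2.7e-05). It was also higher at D4 (2.38, SE 0.53, limma-voom adjusted p = 0.000384).

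Of 8 tested FGF receptors and cofactors, 3 were lower at D2 (37.5% against 6.11% of all genes), which were Fgfr1, Gpc4 and, named after its values were seen, Gpc3, and 1 was higher and 2 lower at D4 (12.5% and 25% against 12.9% and 12.5%). With scaling by total reads 2 were lower at D2, and limma-trend called 3 genes of the list at D2. At D6, 2 were higher and 2 lower, or 25% each against 19% and 18.8% of all genes, which is near the background. Fgfr1 and Fgfr3 were called, in opposite directions, and the receptors Fgfr2 and Fgfrl1 were called on no day. Fgfr1 had 104 to 119 RPM at D0 and 24.9, 58.1 and 59.7 RPM at D2 (log2 fold change -1.29, SE 0.31, limma-voom adjusted p = 0.00259), and it was also lower at D6 (-0.96, SE 0.22, adjusted p = 0.000336). Fgfr3 had 4.45 to 13 RPM at D0 and 59.4 to 70 RPM at D6, a log2 fold change of 2.72 (SE 0.43, limma-voom adjusted p = 4.23e-07). The heparan sulfate proteoglycan Gpc4 fell on every day, with -2.96 (SE 0.64, limma-voom adjusted p = 0.000598) at D2 and -2.95 (adjusted p = 8.58e-06) at D6. Without D2 replicate 2 its D2 value was -1.9 (limma-voom adjusted p = 0.0791). Flrt3, a membrane protein that binds FGF receptors, was higher at D6 (1.52, SE 0.42, limma-voom adjusted p = 0.00261).

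All 16 RAS-ERK transducers were tested, and 4 were higher and 4 lower at D6, or 25% each against 19% and 18.8% of all genes, which is near the background (6 and 3 with scaling by total reads). The adaptor Shc1 (-2.11, SE 0.54, limma-voom adjusted p = 0.00136) and the kinase Map2k1 (-1.37, SE 0.3, adjusted p = 0.000179) were lower. The D6 libraries of Map2k1 had 73.7, 39.6 and 14.9 RPM, so that replicate 1 lay within the D0 range of 63.5 to 92.5 RPM, and without replicate 3 the value was -0.79 (limma-voom adjusted p = 0.0275). The exchange factor Sos1 (1.89, SE 0.45, limma-voom adjusted p = 0.000567) and the docking protein Gab1 (1.53, SE 0.53, adjusted p = 0.0174) were higher. Gab1 was already higher at D2 (2.19, SE 0.56, limma-voom adjusted p = 0.00421) and Map2k1 already lower (-1.74, SE 0.43, adjusted p = 0.00323). At D4 Map2k1 was called (-0.7, limma-voom adjusted p = 0.0446) but not with scaling by total reads (-0.58, adjusted p = 0.109) or without D0 replicate 1 or 3 or any 1 of the D4 libraries (adjusted p 0.0584 to 0.177). Without D2 replicate 2 neither Gab1 (1.98, limma-voom adjusted p = 0.0518) nor Map2k1 (-1.34, adjusted p = 0.105) was called at D2, and without D0 replicate 2 Gab1 was not called at D6 (1.52, adjusted p = 0.0586).

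Among other feedback genes and targets of FGF-ERK signalling, 7 of 18 were tested, and 2 were lower on all 3 days. At D2, 1 was higher and 2 lower (14.3% and 28.6% against 4.69% and 6.11% of all genes), at D4, 1 and 3 (14.3% and 42.9% against 12.9% and 12.5%), and at D6, 0 and 2 (28.6% lower against 18.8%). With scaling by total reads 1 was higher and 2 lower at D4, and limma-trend called 2 genes of the list at D4. Etv5, an ETS factor switched on by FGF signalling, had 17, 18 and 17 reads at D0 (33.3 ± 4.28 RPM, SD, n = 3) and 0 reads in each of the 9 later libraries. It was at least 5.98-fold lower at D2, at least 12.2-fold at D4 and at least 11.4-fold at D6. Ier3, an immediate early gene, fell from 36 ± 6.18 RPM (SD, n = 3) at D0 to 6.92 ± 8.65 RPM at D2, a call that was lost without D2 replicate 2 (limma-voom adjusted p = 0.0522) or D2 replicate 3 (adjusted p = 0.0607). Etv5, like Nodal and Tdgf1, was thus read in D0 libraries only. Outside the rule for named genes, Dusp5 was higher at D2 and Dusp9 at D4, and Spred1 was lower at D4, and these were named after their values were seen.

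**Figure D4:**
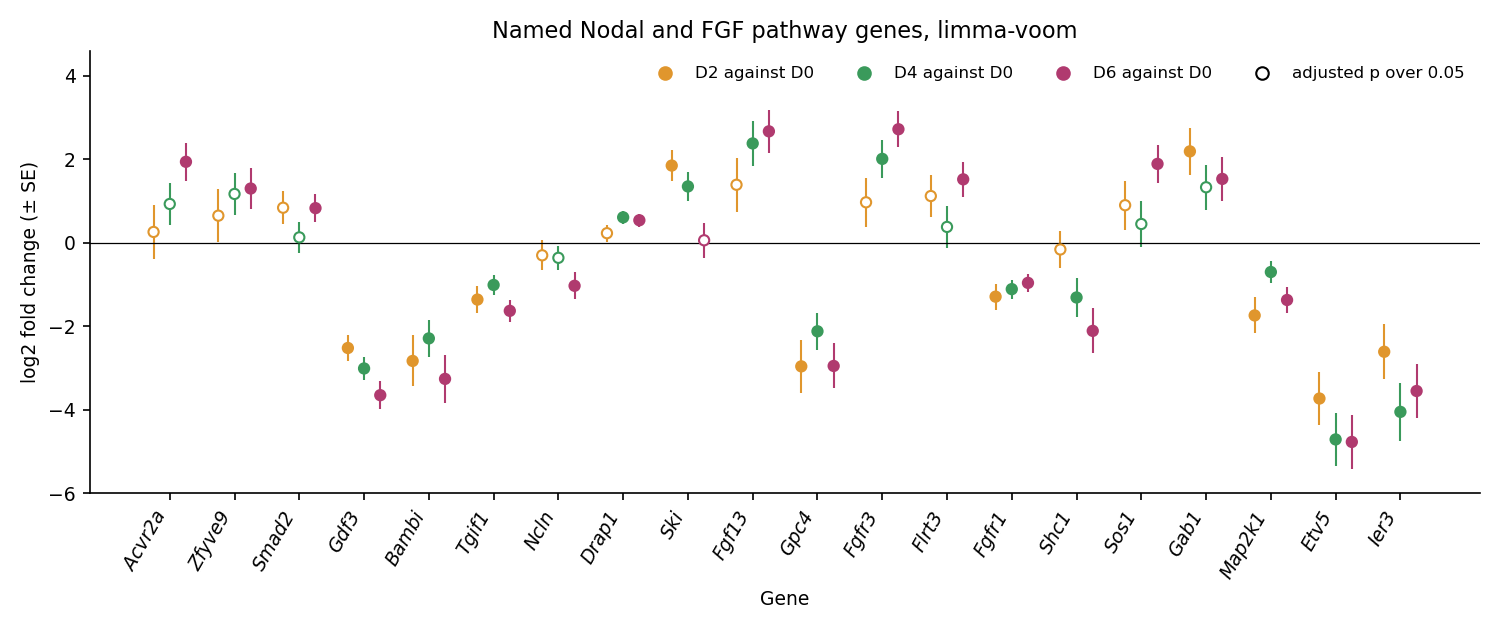
Fitted log2 fold change (limma-voom, bars are SE) of the named Nodal and FGF pathway genes at D2, D4 and D6 against D0, with open circles where the adjusted p was over 0.05. Gdf3, Bambi, Tgif1, Gpc4, Fgfr1, Map2k1, Etv5 and Ier3 lie below 0 and filled on all 3 days, and Fgf13 and Fgfr3 rise to 2.67 and 2.72 at D6.

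Markers of cell types were read as well, and some of their sums changed over the days. The summed level of 8 pluripotent markers was 1535 to 1740 RPM at D0, 0 to 12.4 RPM at D2, 0 at D4 and 8.91 to 11 RPM at D6, with 5 of 8 read at D0 and Zfp42, Dppa5a and Klf4 at 0. The D0 sum was mainly Pou5f1 (1553 RPM on average), and 9 of the D6 reads were of Esrrb, which had 1 read at D0. That of 5 neural progenitor markers, all read on each day, was 177 to 225 RPM at D0, 590 to 726 RPM at D2 and 648 to 774 RPM at D6, and that of 6 neuronal markers was 474 to 511 RPM at D0, 307 to 514 RPM at D2 and 2626 to 2845 RPM at D6. At D2 Nodal and Tdgf1 had no read and Lefty1 had 1. The neuronal markers Stmn2 (-1.95, limma-voom adjusted p = 2.03e-09) and Tubb3 (-1.07, adjusted p = 0.00485) were lower at D2 than at D0 and Gap43 was higher (2.03, adjusted p = 1.63e-11), and the other 3 of the 6 were not called. Smooth muscle and fibroblast markers had 33.4 to 39.1 RPM at D0 and 0 to 7.37 RPM at D6, led by Acta2. Endoderm markers did not exceed 16.6 RPM in any library, with Gata4, Sox17 and Afp at 0, mesoderm markers did not exceed 11.1 RPM, with T and Mesp1 at 0, and glial markers did not exceed 4.15 RPM. The part of these shifts in the levels of Nodal, Tdgf1, Lefty1 and the FGF ligands was not tested.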

How the data were processed

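Poly(A) RNA of 12 libraries was sequenced by the nanopore direct RNA method. Base calls were made by the authors in Guppy, alignments to mm10 transcripts in Minimap2 (2.20 per the submitters' processing notes), tail calls in Nanopolish and barcode calls in Deeplexicon. The authors deposited 1 line per alignment (6306434 lines, 69 malformed) with the aligner's mapping quality score, a barcode confidence given as a fraction, and tail length in nucleotides, not normalized. A second deposited table holds the fold changes and p-values of the authors' DESeq2 fit and was not used.

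Lines with the tag PASS and class mRNA were tallied per gene and library, without mitochondrial transcripts and pseudogenes (4274320 reads, 120326 to 613756 per library). A read aligned more than once kept its lines (2387 repeats, 0.056%). Tallies were made here, so limma-voom (limma 3.58.1, R 4.3.3) was fitted to all 12 libraries, with a trimmed-mean scaling (30% of ratios, 5% of levels trimmed), 0.5 reads added and genes of at least 30 reads. Adjusted p-values (Benjamini-Hochberg) were called at 0.05. The fit was tested on simulated data. Single genes were compared by exact permutation tests. Pooled folds have exact 95% binomial intervals, bounds use 3 reads per day, and both cover counting error only. Transcripts and coding parts came from GENCODE vM21 (97.8% of transcripts matched), promoters from RefSeq, and coding sequences were aligned with Biopython 1.88. Python 3.11.15 was used with scipy 1.17.1, pandas 2.3.3 and, for plots, matplotlib 3.10.9.

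The members and lists were chosen with earlier results of these data known. Named were the 10 members, from each list up to 4 genes called at D6 with the largest fold change and up to 2 called at D2, and Pou5f1, Map2 and Tubb3. The result of 1 gene that this rule names is not reported here. Genes most like a member were to be named for members with at least 100 reads, and none had as many. Alternatives were another scaling, limma-trend, other filters, thinning, the replicate block and leaving out each library.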

Additional observations from a re-analysis of the deposited data

How the results depend on the processing

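Nodal, Lefty1 and Tdgf1 kept their direction and their call at D2, D4 and D6 against D0 under every alternative that left them enough reads, with a highest adjusted p of 0.0178 (limma, Nodal at D2). Since nearly all their reads are from D0, genes that pass the minimum this way had to differ, and this is no sign of stability. Under a minimum of 100 reads and after thinning to the smallest library no member was tested, and Nodal was not tested without a D0 library. Without the minimum of 30 reads, 5 of 7 members tested were called at D4, 1 higher and 4 lower. Of the 14042 genes in that fit, 9.19% were called higher and 9.17% lower at D4. Leaving out 1 library left 2 or 3 members tested, and each of them was called lower on each day against D0.

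The numbers of all genes called moved more. Scaling by total reads kept the totals within 1.5 times but moved them towards higher calls, to 720 higher and 373 lower at D2 and 2588 and 1162 at D6, from 437 and 569 and from 1765 and 1751. Against D0 at D2, 1615 genes were called without the minimum, 569 at a mapping quality of at least 10, and 284 after thinning. Thinning gave 632 at D4 and 1207 at D6, and the mapping quality limit gave 2179 at D6. Between D2 and D4, limma-trend called 454 and thinning 118, and between D4 and D6 limma-trend called 444, the mapping quality limit 416 and thinning 198. Leaving out 1 library gave 655 to 1028 genes at D2 (655 without D2 replicate 2), 1801 to 2392 at D4, 2802 to 3530 at D6, 165 to 320 between D2 and D4 (165 without D2 replicate 2) and 433 to 789 between D4 and D6 (433, 488 and 507 without D4 replicate 2, D6 replicate 2 and D6 replicate 3). Thinning, the mapping quality limit and left-out libraries reduce the reads or genes tested. For limma-trend the cause was not tested.

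Replicate numbers did not pair the samples, since correlations of same-numbered libraries ran from -0.09 to 0.111. With a replicate block 1044 of 9309 genes were called at D2, 2064 at D4 and 3153 at D6. On each day 3 of 3 members tested were called. The planned comparison of tails between days was not run, because no member had 5 reads in every library of 2 days.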
